A study of Mus musculus with 6 samples.

Results

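The genes of the Polycomb repressive complexes were read out in tumor-infiltrating Tregs with and without Ku70, the protein encoded by Xrcc6. The set is 10 genes out of 15319 genes listed: the Polycomb repressive complex 2 (PRC2) genes Ezh1, Ezh2, Eed, Suz12 and Jarid2, the PRC1 genes Rnf2, Ring1 and Bmi1, and Pcgf6 and L3mbtl2 of the variant complex PRC1.6. They were taken by symbol, but the set was chosen with earlier results of these data known. All 10 were listed with counts in every library, from 240 to 2164 counts each, so none was lost to a filter on low values. Tregs were sorted from tumor-bearing lungs of Foxp3Yfp-Cre mice (WT) and of Xrcc6flox/flox Foxp3Yfp-Cre mice (cKO). Both groups carried the Cre allele, which is expressed from the Foxp3 locus, so the deletion is limited to cells that have expressed Foxp3. All mice were on the C57BL/6J background, were 8 to 10 weeks old when 1000000 cells of LLC, a mouse lung carcinoma line, were given through the tail vein, and were sampled 21 days later. Each group had 3 libraries, numbered as replicates 1, 2 and 3. The sources used here do not say whether a library came from 1 mouse or a pool, so the p-values measure the spread between these libraries only.

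PRC2 is an enzyme complex that methylates histone H3 at the lysine that carries the repressive mark H3K27me3. Ezh2 or its paralog Ezh1 is the catalytic subunit, Eed and Suz12 are needed for activity, and Jarid2 helps to recruit the complex to chromatin. PRC1 is a ubiquitin ligase for histone H2A whose catalytic subunit is Rnf2 (RING1B) or Ring1 (RING1A), paired with a Pcgf protein such as Bmi1. PRC1.6 holds Pcgf6 and L3mbtl2 together with DNA-binding partners of the E2F6 and MGA/MAX families, and is known for keeping germ cell genes silent in somatic cells. In activated Tregs, Ezh2 is known for maintaining the repression of genes that Foxp3 keeps off, including effector cytokine genes.

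Promoter windows from RefSeq on GRCm38.p6, 250 bases before to 50 bases after each annotated start and read 5′ to 3′ on the strand of the gene, show the letters by which these genes and a silenced germ cell gene differ. All 10 genes matched, with 11 windows. The letters of 3 motifs were searched on both strands, and none of the motifs contains another. The E-box CACGTG, which MGA/MAX and related factors bind, was in 7.15% of all 32851 windows. The E2F6-type motif GCGGGAA was in 4.6% of them. The E2F-type motif TTTGGCGC was in 0.514%. The paralogs Ezh2 and Ezh1 are shown because their promoters differ in the E2F-type letters, which are in capitals, and Sycp3, a gene of the meiotic chromosome axis, is shown as a germ cell gene with both E-box and E2F6-type letters, in capitals.
Ezh2: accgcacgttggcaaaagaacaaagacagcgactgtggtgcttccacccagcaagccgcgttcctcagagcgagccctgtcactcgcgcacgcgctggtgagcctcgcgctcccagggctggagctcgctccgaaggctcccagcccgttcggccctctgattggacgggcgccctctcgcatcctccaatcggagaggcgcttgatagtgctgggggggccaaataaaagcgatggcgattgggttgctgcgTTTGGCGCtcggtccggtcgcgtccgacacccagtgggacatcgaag
Ezh1: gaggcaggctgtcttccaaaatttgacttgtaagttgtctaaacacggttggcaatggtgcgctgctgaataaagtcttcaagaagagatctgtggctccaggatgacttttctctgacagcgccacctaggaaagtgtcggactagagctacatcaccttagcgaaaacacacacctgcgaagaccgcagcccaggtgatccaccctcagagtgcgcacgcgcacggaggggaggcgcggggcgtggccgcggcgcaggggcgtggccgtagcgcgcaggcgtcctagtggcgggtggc
Sycp3: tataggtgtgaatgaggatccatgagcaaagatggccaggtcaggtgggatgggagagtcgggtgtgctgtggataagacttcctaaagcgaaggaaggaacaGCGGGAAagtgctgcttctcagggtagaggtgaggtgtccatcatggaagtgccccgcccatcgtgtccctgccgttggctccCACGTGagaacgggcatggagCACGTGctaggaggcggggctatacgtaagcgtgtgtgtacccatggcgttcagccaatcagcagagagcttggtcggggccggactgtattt
The Ezh2 window (chr6:47594981-47595280, minus strand) held 1 E2F-type motif beginning 3 bases after the start, and the Ezh1 window (chr11:101226414-101226713, minus strand) held none of the 3 motifs. The Sycp3 window (chr10:88459337-88459636, plus strand) held 2 E-boxes and 1 E2F6-type motif. Among the 10 genes the E-box was found only in Bmi1, the E2F6-type motif only in Suz12 and the E2F-type motif only in Ezh2. Of 32 germ cell genes, 28 matched with 34 windows, of which 17 windows of 14 genes held an E-box (50%) and 9 windows of 8 genes held the E2F6-type motif (26.5%). A match describes letters in the window and is not a bound site.

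Total counts were 19032620 to 21707706 in the WT and 20762042 to 23159815 in the cKO libraries. Values are CPM, relative to a library total scaled by the TMM method, and 3 counts, the limit that a count of 0 allows for counting error, were worth 0.133 to 0.156 CPM. WT replicate 2 stood apart from the others: 11513 genes had a count in it, and 14442 to 14737 genes did in each other library. Values without it are given beside the results. Values are listed in the order of replicates 1, 2 and 3. The targeted gene Xrcc6 measured 20.9, 63.1 and 23.8 CPM in WT libraries, all above the 5.24, 3.51 and 4.18 CPM of the cKO libraries. The log2 fold change of Xrcc6 was -3.06 ± 0.48 (SE, edgeR p = 0.000306, adjusted p = 0.984, two-sided exact permutation p = 0.1). Without WT replicate 2 it was -2.38 (edgeR adjusted p = 0.0196, two-sided exact permutation p = 0.2). With all 6 libraries edgeR's adjusted threshold therefore did not call the deleted gene itself. By DESeq2 the unadjusted p of Xrcc6 over all 6 libraries was 7.96e-10, and 2 of all genes had an adjusted p under 0.05. Foxp3, the defining gene of Tregs, was at 241, 150 and 208 CPM in WT and at 282, 189 and 242 CPM in cKO libraries. The 8 Treg markers summed to 4599 to 6424 CPM in WT and 4929 to 5537 CPM in cKO libraries. Of the 8, 0 had an unadjusted edgeR p under 0.05, against 1.81% of all genes. Ctla4, the most abundant, was at 1263, 1395 and 1247 CPM in WT and 1116, 1236 and 875 CPM in cKO libraries, without overlap, as for 8.24% of all genes (exact permutation p = 0.1). Markers of other cells were also read: the summed level of 10 macrophage and dendritic cell genes was 178 to 690 CPM in WT and 226 to 1019 CPM in cKO libraries, most of it Lyz2, with 2 of the 10 at 0 in WT replicate 2. Red blood cell genes summed to 0 to 9.75 CPM in WT and 10.9 to 36.1 CPM in cKO libraries, with all 5 at 0 in WT replicate 2. These sums did not overlap, and the groups did not overlap for 8.24% of all single genes either. Of the 5, 0 were at an unadjusted edgeR p under 0.05, against 1.81% of all genes. Without that library 2 were, higher in cKO, against 1.52% of all genes in that direction. The lists for neutrophils, B cells, CD8 T and NK cells, epithelium, and stroma and endothelium overlapped between the groups, with sums of at most 104 CPM. Within the 7 neutrophil genes 2 were nevertheless higher in cKO, at an unadjusted p under 0.05 with and without WT replicate 2 (0.94% and 1.52% of all genes were) and with an adjusted p of 0.984 over all 6 libraries: S100a9, at 0.0956, 0 and 0.208 CPM in WT and 1.11, 1.35 and 1.91 CPM in cKO libraries, and Retnlg, at 0 in every WT library and at 0.882, 0.625 and 1.51 CPM in cKO libraries. By sign 5 of the 7 were higher and 2 lower in cKO. The most abundant, Mmp9 and Cxcr2, had log2 fold changes of 0.21 and -0.58, with overlapping groups. Of the 6 B cell genes 1 was higher in cKO at an unadjusted p under 0.05, against 0.94% of all genes, but not without WT replicate 2. The part of these cells in the Polycomb values was not tested, and fewer cells of a type cannot be told apart from less RNA per cell in such bulk libraries.

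None of the 10 Polycomb genes differed between cKO and WT Tregs beyond the spread between replicates. With edgeR's quasi-likelihood test 0 of 10 had an adjusted p under 0.05, where 0 of all 15315 genes tested (0%) did, and 0 of 10 had an unadjusted p under 0.05, where 1.81% of all genes did. DESeq2 gave 0 of 10 at either threshold, against 0.0131% of all genes at the adjusted and 2.01% at the unadjusted p. So did limma's voomWithQualityWeights, against 0% and 3.55%. All adjusted p values of the 10 genes were at least 0.984. The deleted gene Xrcc6 did not pass edgeR's adjusted threshold over all 6 libraries either, so that count alone cannot exclude a change in the 10 genes. The log2 fold changes of cKO over WT lay between -0.19 for Pcgf6 and 0.23 for L3mbtl2, with 5 genes higher and 5 lower. Their median was -0.00, beside 0.04 over all genes. The 95% intervals of the 10 genes together reached from 0.567-fold to 1.67-fold, and without WT replicate 2 from 0.711-fold to 1.53-fold. The WT and cKO libraries overlapped in all 10 genes, while 8.24% of all genes did not overlap.

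**Figure D1:**
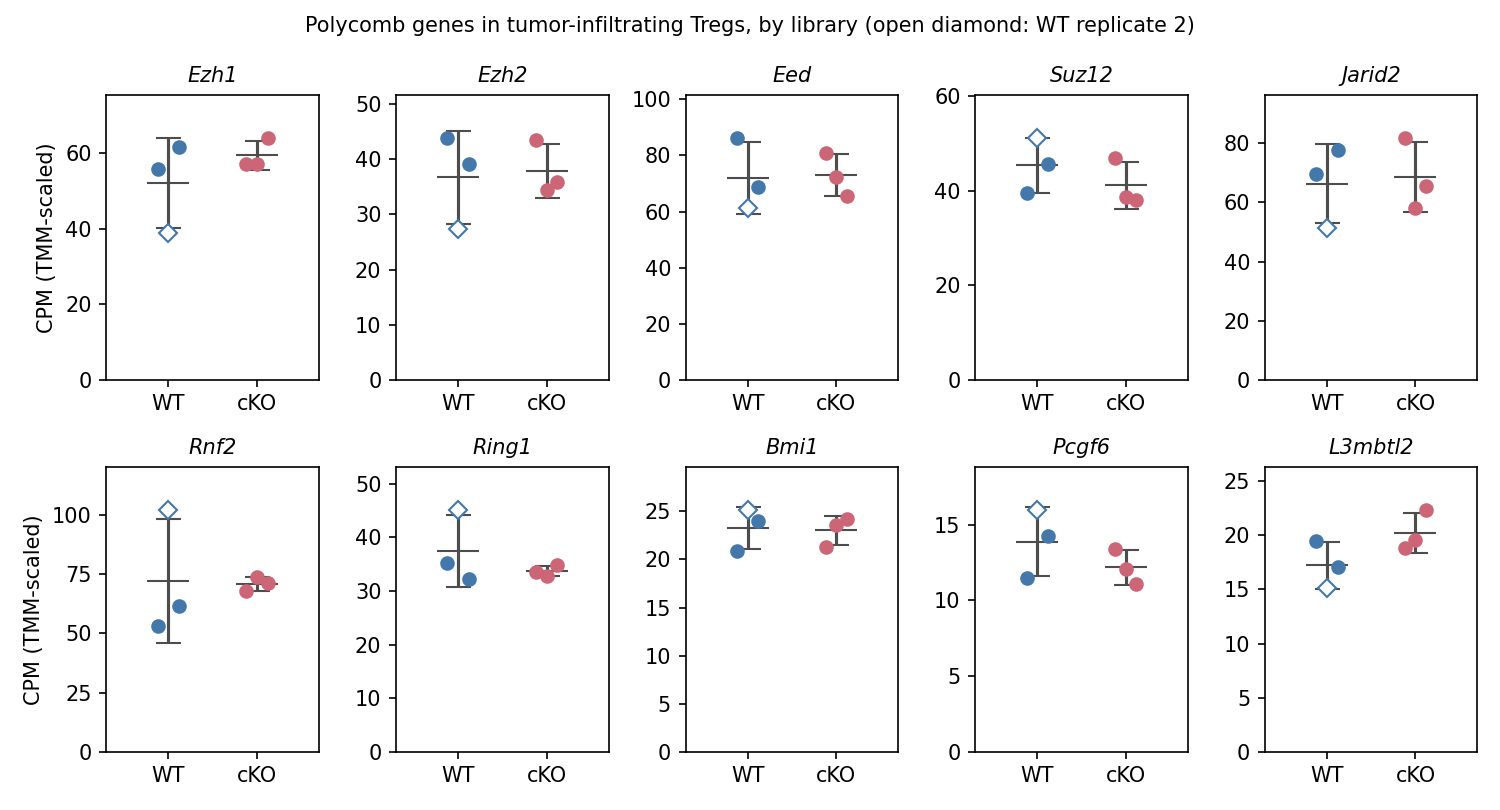
Levels of the 10 Polycomb genes in each library, in CPM with TMM scaling on an axis that starts at 0; points are libraries, WT in blue and cKO in red, the open diamond is WT replicate 2, and bars are the mean ± SD of 3 libraries. In every panel the groups overlap and WT replicate 2 is the highest or the lowest library.

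The catalytic subunits of PRC2 were at like levels in both groups. Ezh2 (chromosome 6, 47530139 to 47595341, minus strand) measured 43.7, 27.3 and 39.0 CPM in WT libraries and 43.5, 34.4 and 35.8 CPM in cKO libraries. The lowest value was WT replicate 2, and the next 2 from below were cKO libraries, while replicate 1 of each group was highest. The log2 fold change of Ezh2 was 0.05 ± 0.22 (SE), with a 95% interval of -0.46 to 0.56 (edgeR p = 0.833, exact permutation p = 1), and without WT replicate 2 it was -0.13. The deposited Ezh2 counts are not whole numbers, which leaves its level uncertain by any reads that were divided between genes. A processed pseudogene, Gm44282, lies within its bounds on the other strand. Whether reads were shared with it was not tested. Ezh1 (chromosome 11, 101191115 to 101226463, minus strand) was at 55.8, 39.0 and 61.8 CPM in WT and at 57.2, 57.3 and 64.0 CPM in cKO libraries. WT replicate 2 was again the lowest, and the other 5 libraries lay close together. Its log2 fold change was 0.19 ± 0.19 (SE, edgeR p = 0.360, exact permutation p = 0.4), and 0.02 without WT replicate 2.

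The balance of the catalytic paralogs does not depend on the scaling of a library, since it is taken within each. The ratio of Ezh2 to Ezh1 counts ran at 0.784, 0.700 and 0.632 for WT libraries and at 0.760, 0.600 and 0.561 for cKO libraries. Ezh1 had more counts than Ezh2 in all 6 libraries, and the groups overlapped. On the log2 scale the ratio was -0.51 ± 0.16 in WT and -0.66 ± 0.23 in cKO (SD, n = 3 each), a difference of -0.15 (two-sided exact permutation test, p = 0.4, where 3 against 3 libraries cannot give less than 0.1). Without WT replicate 2 the difference was also -0.15 (p = 0.4, two-sided exact permutation test). In the ratio WT replicate 2 lay between the other WT libraries, although both genes were lowest in it.

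Because the level of Ezh2 follows cell division in many tissues, 21 proliferation genes were read beside it. Their summed level was 889 to 1136 CPM in WT and 928 to 1031 CPM in cKO libraries, and Mki67, a marker of cycling cells, was at 60.5, 18.4 and 52.3 CPM in WT and at 51.2, 51.2 and 49.6 CPM in cKO libraries. Mki67 and Ezh2 were both lowest in WT replicate 2, but the summed level there, 949 CPM, lay between those of the other WT libraries. That sum does not show differences between single genes: 3 of the 21 were at 0 counts in WT replicate 2. Of the 21 genes, 1 was lower in cKO at an unadjusted p under 0.05, against 0.868% of all genes: Cdk1, the mitotic kinase, at 15.1, 25.9 and 10.9 CPM in WT and 9.88, 10.4 and 7.61 CPM in cKO libraries, with a log2 fold change of -0.90 ± 0.38 (SE, edgeR p = 0.0472, exact permutation p = 0.1), which was -0.49 (p = 0.0556) without WT replicate 2. The most abundant of the 21 were Mcm6, of the replicative helicase, at 157 ± 49.9 CPM in WT and 167 ± 15.1 CPM in cKO, and Pcna, the replication clamp, at 142 ± 30.6 and 116 ± 5.41 CPM (SD, n = 3 each). Unlike Mki67, both Cdk1 and Pcna were highest in WT replicate 2, Pcna at 176 CPM there and 111 to 129 CPM elsewhere. The part of cell division in the Ezh2 values was not tested.

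The non-catalytic PRC2 subunits also stayed within the spread. Eed, which binds the methyl mark the complex makes (chromosome 7, 89954654 to 89980983, minus strand), was at 86.0, 61.1 and 68.9 CPM in WT and at 80.7, 72.3 and 65.7 CPM in cKO libraries. The highest and the lowest library were both WT. Suz12, which holds the complex together (chromosome 11, 79993106 to 80034123, plus strand), was at 39.5, 51.0 and 45.6 CPM in WT and at 46.9, 38.7 and 37.9 CPM in cKO libraries. Here WT replicate 2 was the highest. Jarid2 (chromosome 13, 44729474 to 44921643, plus strand) was at 69.7, 51.5 and 77.6 CPM in WT and at 81.6, 58.3 and 65.7 CPM in cKO libraries, with 1 cKO library above and 2 between the WT values. Their log2 fold changes were 0.02 ± 0.17 for Eed, -0.14 ± 0.17 for Suz12 and 0.05 ± 0.20 for Jarid2 (SE), with exact permutation p values of 1, 0.4 and 0.8. They were -0.09, -0.05 and -0.11 without WT replicate 2.

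Rnf2 was the member whose reading turned most on a single library. Rnf2 (chromosome 1, 151458004 to 151500955, minus strand), the main catalytic subunit of PRC1, was at 52.9, 102 and 61.4 CPM in WT and at 67.6, 73.6 and 71.0 CPM in cKO libraries. WT replicate 2 was the highest library and the other WT libraries were the lowest, with the 3 cKO libraries between them. Over all 6 libraries the log2 fold change was -0.03 ± 0.25 (SE, edgeR p = 0.920, exact permutation p = 1). Without WT replicate 2 it was 0.31 ± 0.13 (SE), with a 95% interval of 0.01 to 0.61, or 1.24-fold (1.00 to 1.53), at an unadjusted edgeR p of 0.0470, an adjusted p of 0.997 and a DESeq2 p of 0.0473. That is 1 of 10 members at an unadjusted p under 0.05 in that comparison, where 3.01% of all genes and, in the higher direction, 1.52% reached it with edgeR and 2.42% with DESeq2 in either direction. The adjusted p was passed by 0 members, against 0.00654% of all genes with edgeR and 0.0196% with DESeq2. Rnf2 was then the 1 member whose groups did not overlap, where 16.3% of all genes did not overlap, 8.36% with cKO higher (exact two-sided permutation p = 0.2, the smallest that 2 against 3 libraries can give). Rnf2 overlaps Trmt1l on the other strand, and the sources used here do not say whether counting used the strand, so reads from the shared bases cannot be told apart.

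The other core PRC1 genes varied less. Ring1, the catalytic paralog of Rnf2 (chromosome 17, 34020792 to 34024680, minus strand), was at 35.2, 45.0 and 32.2 CPM in WT and at 33.6, 32.9 and 34.8 CPM in cKO libraries, and all libraries but WT replicate 2 lay within a few CPM of each other. Bmi1, a Pcgf subunit of canonical PRC1 known for repressing the Cdkn2a locus (chromosome 2, 18677018 to 18686629, plus strand), was at 20.9, 25.1 and 24.0 CPM in WT and at 21.3, 23.6 and 24.2 CPM in cKO libraries. The groups covered nearly the same range. The log2 fold change was -0.15 ± 0.18 for Ring1 and -0.02 ± 0.19 for Bmi1 (SE, edgeR p = 0.430 and 0.926, exact permutation p = 0.6 and 0.9). They were 0.0014 and 0.04 without WT replicate 2. The ratio of Rnf2 to Ring1 counts was 1.501, 2.26 and 1.91 in WT and 2.01, 2.24 and 2.04 in cKO libraries, a log2 difference of 0.17 (two-sided exact permutation p = 0.5). Rnf2 had more counts than Ring1 in all 6 libraries. Without WT replicate 2 the log2 difference was 0.31 and the groups did not overlap (exact two-sided permutation p = 0.2, the smallest possible).

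The PRC1.6 genes had the lowest levels of the set and, with all 6 libraries, the lowest and the highest log2 fold change; without WT replicate 2 these were Ezh2 at -0.13 and Rnf2 at 0.31. Pcgf6, the subunit that defines PRC1.6 (chromosome 19, 47033617 to 47050906, minus strand), was at 11.5, 15.9 and 14.2 CPM in WT and at 13.4, 12.1 and 11.1 CPM in cKO libraries. L3mbtl2, a reader protein of the same complex (chromosome 15, 81663889 to 81688315, plus strand), was at 19.5, 15.1 and 17.1 CPM in WT and at 18.8, 19.6 and 22.3 CPM in cKO libraries. In each gene the groups overlapped, through WT replicate 1. The log2 fold change of Pcgf6 was -0.19 ± 0.27 (SE, 95% interval -0.82 to 0.44, edgeR p = 0.506, exact permutation p = 0.3) and -0.08 without WT replicate 2. That of L3mbtl2 was 0.23 ± 0.22 (SE, 95% interval -0.28 to 0.74, edgeR p = 0.320, exact permutation p = 0.2) and 0.15 without WT replicate 2. L3mbtl2 lies on the same chromosome as Xrcc6, 299.52 kb away, and overlaps Chadl on the other strand. Of 26 tested genes within 500 kb of Xrcc6, 0 had an unadjusted edgeR p under 0.05 with or without WT replicate 2, against 1.81% and 3.01% of all genes.

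**Figure D2:**
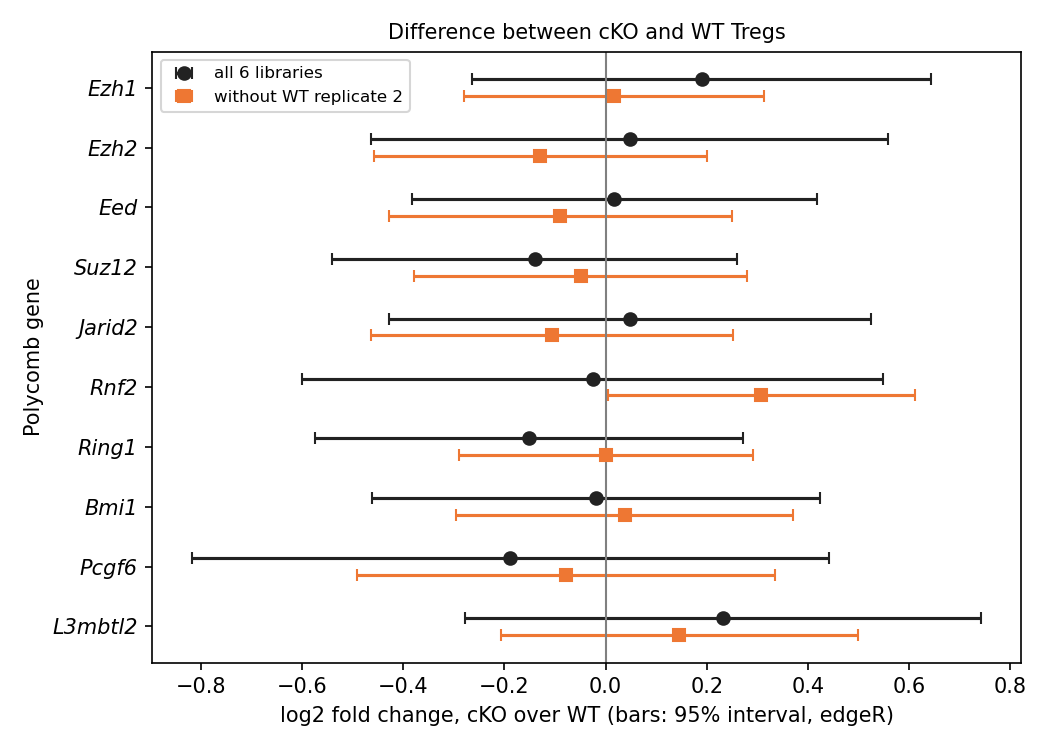
Log2 fold change of cKO over WT for each Polycomb gene, with 95% intervals from edgeR's quasi-likelihood test; black circles use all 6 libraries and orange squares leave out WT replicate 2. All intervals but that of Rnf2 without WT replicate 2 (0.01 to 0.61) include 0.

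The direction of most members turned on single libraries. WT replicate 2 was the highest or the lowest of the 6 libraries in 10 of 10 genes, as it was in 77.2% of the 8447 genes with a mean of at least 10 CPM. It was highest for Suz12, Rnf2, Ring1, Bmi1 and Pcgf6, as for 37.6% of those genes, and lowest for Ezh1, Ezh2, Eed, Jarid2 and L3mbtl2, as for 39.6%. Its level relative to the mean of the other 5 libraries ran from 0.658 for Ezh1 to 1.56 for Rnf2. Leaving it out turned the sign of the log2 fold change in 6 members, while Ezh1, Suz12, Pcgf6 and L3mbtl2 kept theirs. Leaving out cKO replicate 1 instead turned 5 of the same 6, to -0.062 for Ezh2, -0.062 for Eed, -0.096 for Jarid2, 0.0055 for Rnf2 and 0.035 for Bmi1. Leaving out WT replicate 3 turned Eed to -0.011 and Bmi1 to 0.0078. Over the other 5 libraries, WT and cKO together, the coefficient of variation of the 10 genes was 3.81% to 13.2%, and the median SE of a log2 fold change fell from 0.199 with all libraries to 0.146. The summed level of the 10 genes was 433 to 442 CPM in WT and 423 to 465 CPM in cKO libraries, and WT replicate 2 lay at 433 CPM, close to the others.

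Levels can be set between genes only per length. In CPM per kilobase of exon, averaged over 6 libraries, the order was Eed at 18.9, Rnf2 at 17.3, Ring1 at 11.0, Suz12 at 8.75, Ezh1 at 7.50, Jarid2 at 6.94, Bmi1 at 5.83, Ezh2 at 5.58, L3mbtl2 at 3.15 and Pcgf6 at 2.59. A gene lay above its next neighbour in all 6 libraries for Rnf2 over Ring1, Ring1 over Suz12 and Ezh2 over L3mbtl2, and in 4 or 5 of 6 for the remaining neighbours, which were not apart beyond their spread. Without WT replicate 2 Ezh2 stood above Bmi1. The order depends on which exons are counted as the length: with the median length of coding transcripts Eed and Rnf2 stayed first and second and L3mbtl2 and Pcgf6 last, but Bmi1 moved from rank 7 to 3, Suz12 from 4 to 8 and Ezh2, at rank 6, stood above Ezh1, at rank 7.

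**Figure D3:**
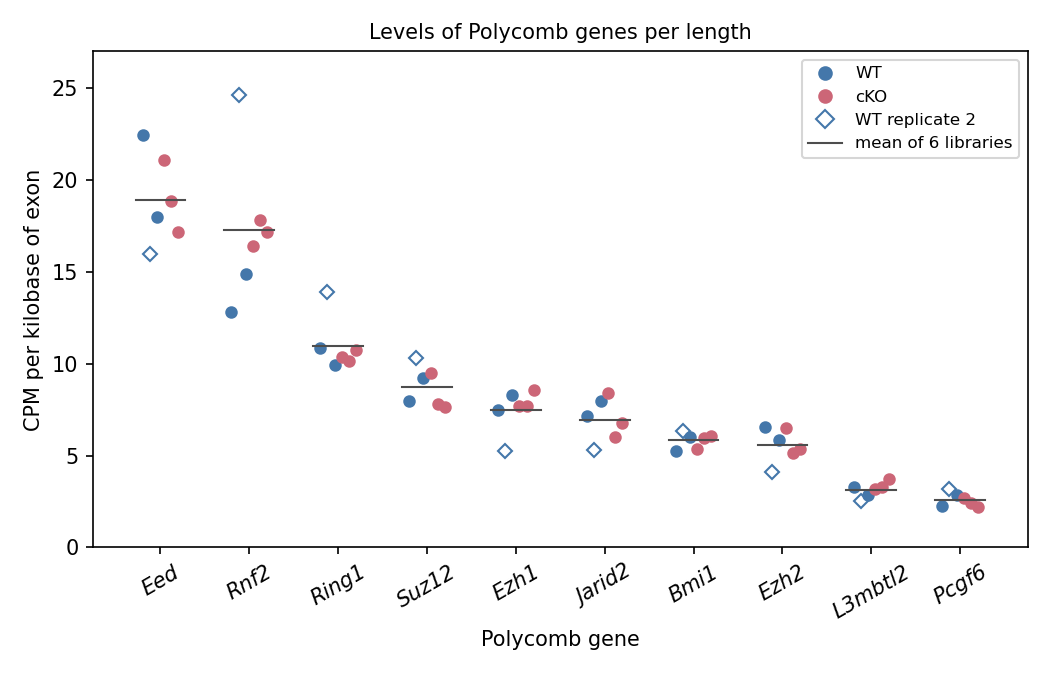
Level of each Polycomb gene per length, in CPM per kilobase of the union of its exons, for each library (WT blue, cKO red, open diamond WT replicate 2) with a line at the mean of 6 libraries. Eed (18.9) and Rnf2 (17.3) have the highest means and Pcgf6 (2.59) the lowest.

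No other subunit passed the unadjusted threshold. Of 43 other genes of PRC2, PRC1 and PRC1.6, 0 rose and 0 fell at an unadjusted edgeR p under 0.05, with or without WT replicate 2, against 1.81% and 3.01% of all genes. Their median log2 fold change was 0.00 with all libraries and -0.02 without WT replicate 2. The most abundant were Aebp2, a PRC2 cofactor, at 251 ± 24.5 CPM in WT and 219 ± 41.0 CPM in cKO, Rbbp4, a histone-binding subunit, at 224 ± 22.0 and 242 ± 14.6 CPM, and Csnk2b, the regulatory subunit of casein kinase found in some PRC1 complexes, at 205 ± 58.3 and 220 ± 30.6 CPM (SD, n = 3 each). Kdm2b, which brings PRC1 to CpG islands, was at 155 ± 21.9 and 136 ± 38.5 CPM. Among the partners of PRC1.6, Cbx3, a reader of methylated histone H3, was at 174 ± 16.1 and 158 ± 8.18 CPM and Hdac1, a histone deacetylase, at 109 ± 27.1 and 116 ± 0.686 CPM. For each of these the groups overlapped. Of the 27 PRC1 genes among the 43, 3 were at 0 counts in WT replicate 2 and 1 was at or under 3 counts in every library. A difference in such genes could be missed. The groups did not overlap for 1 of the 43, against 8.24% of all genes: Max, the DNA-binding partner of MGA, named after its values were seen, was at 93.5, 102 and 92.1 CPM in WT and at 111, 103 and 108 CPM in cKO libraries, with a log2 fold change of 0.17 ± 0.12 (SE, edgeR p = 0.220, exact permutation p = 0.1, the smallest possible), and of 0.21 without WT replicate 2.

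Genes that act against Polycomb were 11: demethylases of its methyl mark, deubiquitinases of histone H2A with their Asxl cofactors, and methyltransferases of active chromatin. Of these 0 passed an unadjusted edgeR p of 0.05 with or without WT replicate 2, against 1.81% and 3.01% of all genes. Their median log2 fold change was -0.30, with 10 of 11 lower in cKO, and -0.10 without WT replicate 2. The medians over all genes were 0.04 and -0.01. Kdm6b, an H3K27 demethylase, was at 223, 932 and 359 CPM in WT and at 314, 240 and 322 CPM in cKO libraries. The high value was WT replicate 2, and the log2 fold change went from -0.79 ± 0.49 (SE, edgeR p = 0.145, exact permutation p = 0.5) to 0.00 without that library. Kmt2d, an H3K4 methyltransferase, was at 268, 554 and 384 CPM in WT and at 340, 251 and 297 CPM in cKO libraries, with a log2 fold change of -0.44, and -0.14 without WT replicate 2.

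Germ cell genes, a class that PRC1.6 is known to silence, were read as its possible targets. Of 32 such genes, 16 were among the genes listed, all with counts. The others were not listed, which is not a measured level of 0. Of the 16, 4 were at or under 3 counts in every library and 8 had a mean above 1 CPM. None rose in cKO at an unadjusted edgeR p under 0.05 (0.94% of all genes did), and 1 fell (0.868% of all genes did). Their median log2 fold change was 0.08, and -0.21 without WT replicate 2. The gene that fell was Mael, a gene of the germline small RNA pathway, named after its values were seen: it had 3, 1 and 3 counts in WT and 0 in every cKO library (edgeR p = 0.0355, exact permutation p = 0.1), so both groups were within the limit that a count of 0 allows and no fold is given. The Mael promoter is shown with its E-box in capitals.
Mael: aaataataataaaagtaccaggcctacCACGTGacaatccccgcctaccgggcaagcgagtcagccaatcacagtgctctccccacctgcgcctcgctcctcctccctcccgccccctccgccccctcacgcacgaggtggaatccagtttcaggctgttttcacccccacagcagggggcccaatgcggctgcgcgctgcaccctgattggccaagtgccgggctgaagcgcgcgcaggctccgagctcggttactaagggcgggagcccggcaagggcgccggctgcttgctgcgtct
The window (chr1:166238695-166238994, minus strand) held 1 E-box and neither E2F-type motif. Sycp3, whose window is shown above, had 3, 0 and 0 counts in WT and 2, 1 and 1 counts in cKO libraries. The most abundant genes of the list were Rec8, a meiotic cohesin, at 8.60, 10.9 and 7.40 CPM in WT and 11.0, 5.24 and 6.67 CPM in cKO libraries, and Tdrkh, of the same small RNA pathway as Mael, at 2.20, 5.36 and 3.65 CPM in WT and 2.69, 4.37 and 3.87 CPM in cKO libraries. In both the groups overlapped. Hormad2, a meiotic axis protein, was at 4.70 CPM in WT replicate 2 and between 0.336 and 0.813 CPM in the others. WT replicate 2 listed 7 of the 16 genes at 0.

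Genes of effector T cells known as Polycomb targets were read next. Of 12 such genes, 0 passed an unadjusted edgeR p of 0.05, against 1.81% of all genes. By sign 10 were lower and 2 higher in cKO. Their median log2 fold change was -0.28, or -0.25 without WT replicate 2, where those over all genes were 0.04 and -0.01. Gata3, the T helper 2 regulator that many tissue Tregs express, was at 725, 868 and 511 CPM in WT and at 716, 506 and 548 CPM in cKO libraries. Il10, a suppressive cytokine, was at 160, 173 and 182 CPM in WT and at 108, 181 and 126 CPM in cKO libraries. The groups overlapped in both. Without WT replicate 2, 1 of the 12 fell at an unadjusted p under 0.05 (1.5% of all genes did): Il4, a T helper 2 cytokine, with 1.05 CPM in replicate 1 and 2.76 CPM in replicate 3 of the WT group, above the 0.835, 0.624 and 0.889 CPM of the cKO libraries (adjusted p = 0.997). WT replicate 2, at 1.55 CPM, was also above all cKO libraries, so the groups did not overlap, as for 8.24% of all genes. Il17a, a T helper 17 cytokine, was high in WT replicate 2, at 28.6 CPM there against 1.39 to 6.98 CPM elsewhere.

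**Figure D4:**
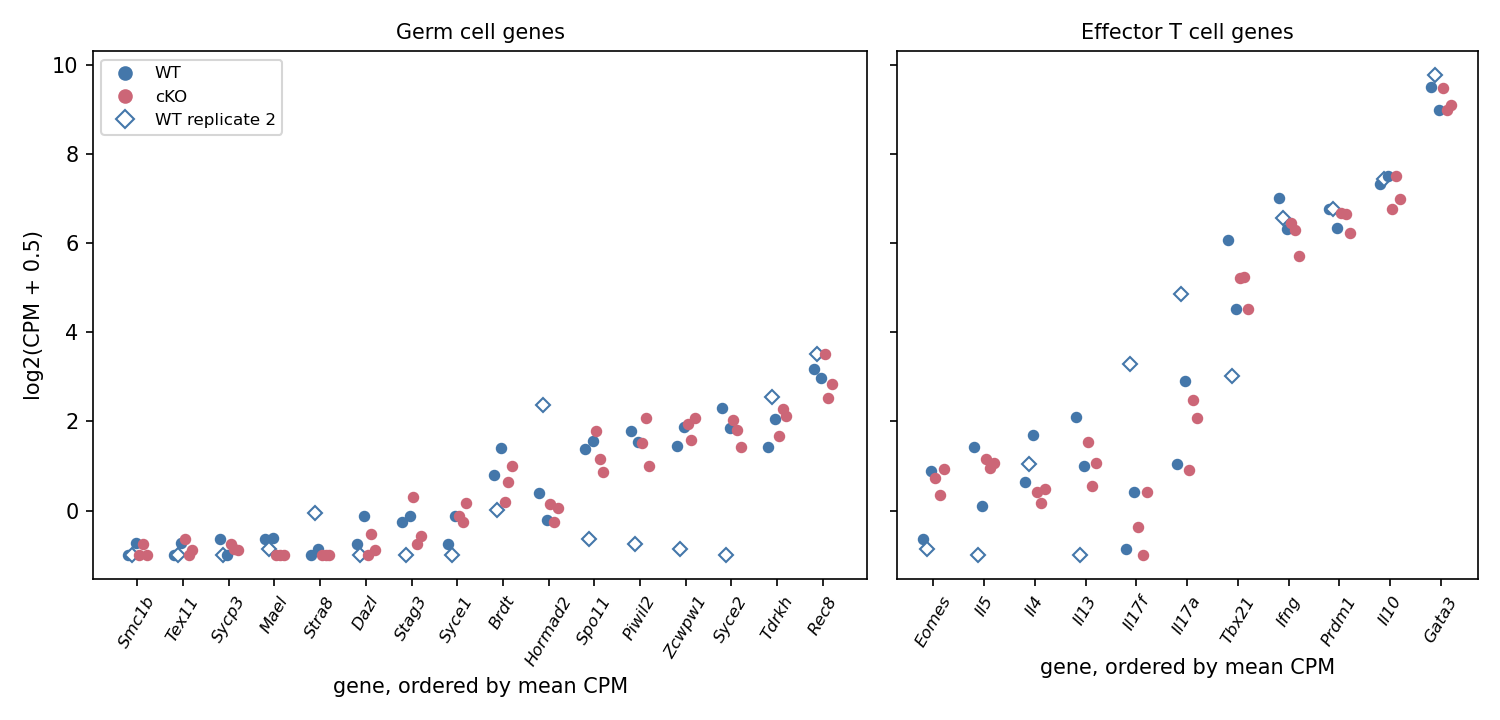
Levels of germ cell genes (left) and effector T cell genes (right) in each library on a log axis, log2(CPM + 0.5), ordered by mean CPM; WT blue, cKO red, open diamond WT replicate 2. WT and cKO libraries overlap for all genes plotted but Mael (3, 1 and 3 counts in WT and 0 in cKO) and Il4, where 8.24% of all genes do not overlap.

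Of 45 developmental regulators, the classical targets of Polycomb repression, 12 were among the genes listed, all with counts. The others were not listed, which is not a measured level of 0. Of the 12, 4 were at or under 3 counts in every library and 11 were at 0 in WT replicate 2. Their median log2 fold change of 0.56 became -0.02 without that library. Hoxb4, a homeobox gene, was at 3.35, 0 and 3.54 CPM in WT and at 4.69, 3.12 and 2.98 CPM in cKO libraries. Cdkn2b, a cell cycle inhibitor gene, was at 2.92, 5.08 and 2.14 CPM in WT and at 1.95, 1.59 and 2.05 CPM in cKO libraries. Its groups did not overlap, as for 8.24% of all genes (edgeR p = 0.195, exact permutation p = 0.1). One gene rose at an unadjusted p under 0.05 (0.94% of all genes did): Pax6, an eye and brain regulator named after its values were seen, at 0 counts in every WT library and 5, 2 and 2 counts in the cKO libraries (edgeR p = 0.0288, exact permutation p = 0.1, adjusted p = 0.984). Replicates 2 and 3 of the cKO group were within the 3 counts that a count of 0 allows and replicate 1 was above them, and no fold is given.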

How the data were processed

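The values deposited by the authors are expected counts for each gene symbol, not normalized. The submitters' processing notes name Bowtie2 (version 2.3.4.3), RSEM (version 1.3.1) and GRCm38. The annotation and the use of strand are not given in the sources used here. Of the deposited values 21.6% were not whole, and all were rounded before testing. Groups came from the labels, and replicates differed by more than sampling noise.

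The 15315 genes with at least 1 count were scaled by TMM and tested with edgeR's quasi-likelihood test (edgeR version 4.0.16, R version 4.3.3), with Benjamini-Hochberg adjustment over all of them. Exact permutation tests (SciPy version 1.17.1) were two-sided. Positions and exon lengths came from GENCODE vM21 of GRCm38, and promoter windows from RefSeq on GRCm38.p6.

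The alternatives were DESeq2 (version 1.42.0), RLE scaling, library size only, filterByExpr (minimum count 10), limma's voomWithQualityWeights (version 3.58.1), a robust fit, the replicate number as a block and each library left out. DESeq2 without WT replicate 2 and the median transcript length were added after seeing the data. Only the edgeR fit, with all libraries and without WT replicate 2, was tested on simulated counts. The changes planted there were larger than those of the members, so it cannot tell whether changes as small as theirs would be found. The members and gene lists were chosen with earlier results of these data known. Named beyond the members, Xrcc6 and Foxp3 were, from each Polycomb, target and proliferation list, up to 3 genes of at least 1 mean CPM with the smallest p under 0.05 and the 2 of highest mean CPM (the marker lists of Tregs and other cells, which the same rule covers, are given by sums, counts and a few genes); Max, S100a9, Retnlg, Mki67, Mael, Sycp3, Hormad2, Il4, Il17a, Pax6 and Lyz2 were named for other reasons, some after their values were seen. A gene of the effector list is counted but not reported here.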

Additional observations from a re-analysis of the deposited data

How the results depend on the processing

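No Polycomb gene reached an adjusted p under 0.05 in any of the 14 alternatives, and at an unadjusted p under 0.05 the count changed from 0 to 1, Rnf2, without WT replicate 2, by edgeR and by DESeq2. Ezh1, Suz12, Pcgf6 and L3mbtl2 kept their direction in all 14. The genes at an adjusted p under 0.05 over the whole table, 0 with edgeR, were 2 with DESeq2 and 3 with DESeq2 without WT replicate 2, and 0 to 1 when each library was left out. Those at an unadjusted p under 0.05 were 277, and 140 with filterByExpr, 543 with voomWithQualityWeights and 65 to 874 when each library was left out (874, 461 and 575 without WT replicate 1, 2 or 3, and 184, 72 and 65 without cKO replicate 1, 2 or 3). The labels number the replicates but do not say whether the numbers pair the samples. The deviations of same-numbered WT and cKO libraries from their group means correlated at -0.01, -0.21 and 0.20. Those of differently numbered libraries correlated at -0.31 to 0.31. With deviations from means of only 3 libraries, these values cannot decide whether the samples are paired. With the number as a block, 85 genes and 0 members were at an unadjusted p under 0.05, and the log2 fold change of Rnf2 was 0.033. The members' median log2 fold change was -0.061 with library size only and -0.062 to 0.025 when each library was left out. With voomWithQualityWeights the log2 fold changes of Ezh2, Eed, Jarid2, Rnf2, Ring1 and Bmi1 turned to -0.13, -0.069, -0.16, 0.26, 0.0091 and 0.033. With library size only that of Eed was -0.032. With DESeq2 without WT replicate 2 those of Ezh2, Eed, Jarid2, Rnf2 and Bmi1 turned to -0.13, -0.092, -0.11, 0.31 and 0.036. When each library was left out they ranged from -0.13 to 0.19 for Ezh2, -0.090 to 0.16 for Eed, -0.11 to 0.18 for Jarid2, -0.21 to 0.31 for Rnf2, -0.24 to 0.0014 for Ring1 and -0.092 to 0.038 for Bmi1. The cause of these turns was not tested. The depth sets a limit of 0.133 to 0.156 CPM, above which all 10 genes lie and many of the listed germ cell and developmental genes do not.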
